A study of Mus musculus with 29 samples.

Results

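Where the glucocorticoid receptor (GR) lies on the liver genome at 6am was compared between wild-type (WT) mice and mice with the GRdim receptor, both untreated. The comparison uses 4 of the 29 samples of the series: the GR ChIP-seq peak list and the GR ChIP-exo border list of each genotype. Its members are all 5781 peaks of the WT list and all 3183 peaks of the GRdim list. Peaks that overlapped by at least 1 bp were taken as the same region. This gave 6219 regions, of the 15329 GR regions that the 6 GR lists of the series hold together: 2745 shared by the genotypes, 3036 listed in WT only and 438 listed in GRdim only.

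GR is the nuclear receptor for corticosterone in mice and for synthetic glucocorticoids. With hormone bound it enters the nucleus, where it can sit as a dimer on a palindromic recognition element or join other factors on DNA, and in liver it is known for control of glucose and amino acid metabolism. GRdim carries a point mutation in the dimerization interface of the DNA-binding domain that impairs, and may not abolish, contact between receptor molecules. In ChIP-exo an exonuclease trims the precipitated DNA up to the crosslinked protein, so each bound site leaves a plus-strand border and a minus-strand border whose distance reflects the footprint. C/EBPβ is a liver transcription factor that often occupies the same regions as GR.

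The WT animals were GR+/+ litter mates of the GRdim animals. Both were males of 12 weeks, back-crossed to BALB/c for 4 generations or more and kept on a 12 h light cycle, and whole liver was taken at the start of the light phase. Each list is a pool of 2 replicates, so each genotype is 1 measurement per assay, no spread between animals can be given and no p-value is printed. The 95% intervals cover the counting of peaks only. The series also holds GR lists of both genotypes at 6pm and after 24 h with prednisolone, a synthetic glucocorticoid, and C/EBPβ lists of WT; these are used below to describe the 6am regions. Positions are in mm9, counted from 1. Since no annotation of that build was used, regions carry no gene names, and liver marker genes could not be looked up.

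The genotypes differed in the material behind the lists as well as in the regions. Each ChIP-seq peak was 200 bp wide and had a score assigned by the authors, which ran from 2.02 to 23.56 in WT (median 2.89) and from 2.03 to 14.90 in GRdim (median 2.71). How deeply the ChIP-seq libraries were sequenced is unknown. Scores were therefore ranked within each list and expressed as a percentile, with 100 at the highest score. The ChIP-exo list of WT held 66573 borders of 10 bp from a library of 55.7 M tags, and that of GRdim 14391 borders from 31.6 M tags. The weakest nuclear border held 3 tags in WT and 4 in GRdim. Tags of listed borders in 6am GR peaks made up 1.57% of the WT library and 0.408% of the GRdim library. Pool, depth, yield of the precipitation and genotype cannot be told apart with 1 pool per genotype.

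The GRdim list was largely contained in the longer WT list as deposited, and WT peaks missing from GRdim occurred at every level of the score. Of the GRdim peaks, 13.8% were absent from WT. Of the WT peaks, 52.5% were absent from GRdim. Absence from WT was most frequent among low-scoring GRdim peaks: among the highest-scoring decile (10% of the peaks) of the GRdim list 317 of 320 peaks (99.1%) were in WT, and among the lowest-scoring decile 63.8%. The WT list behaved differently at its top. In its highest decile 420 of 581 peaks (72.3%) were in GRdim, in the next 3 deciles 67.9%, 69.2% and 64.5%, and then the share fell stepwise to 15.0% in the lowest decile. Thus 161 of the 581 highest-scoring WT peaks (27.7%, 24.2 to 31.5) were absent from GRdim, against 3 of the 320 highest-scoring GRdim peaks from WT. The WT list was 1.82 times as long as the GRdim list. With the WT list cut by score to the length of the GRdim list, 63.2% of each list was in the other. Of the top decile of the cut WT list, 20.8% was absent from GRdim.

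**Figure D1:**
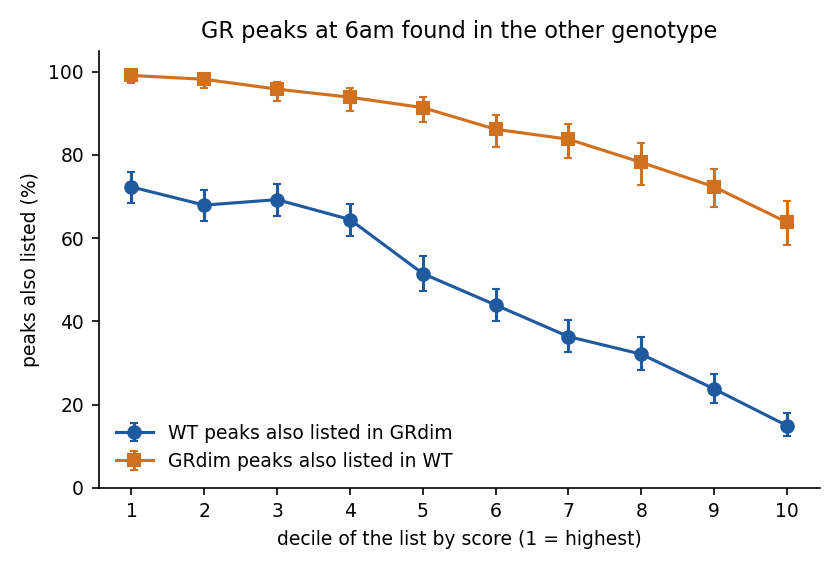
Share of peaks (%, vertical axis, with Wilson 95% intervals) that overlap a peak of the other genotype, by decile of each list from the highest to the lowest scores (horizontal axis). The GRdim line starts at 99.1% and ends at 63.8%, while the WT line starts at 72.3% and ends at 15.0%.

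At the 2745 shared regions the peak centres lay close together, with a median distance of 19 bp and 88.8% within 50 bp. The ranks were related, with a Spearman rho of 0.564 and a Pearson r of ranks of 0.544 over the 2745 regions, which come from the same 2 libraries and are not replicates. The order of the regions was thus only partly shared. From WT to GRdim the percentile fell by more than 25 points at 640 regions (23.3%) and rose by more than 25 points at 209 (7.61%), with a median change of -4.17 points. The lists differ in length and in the part of each that is shared, so this median also holds those differences. Of the 420 shared regions in the WT top decile, 179 (42.6%) were in the GRdim top decile and 66 (15.7%) in the lower 50% of the GRdim list. Of the 320 peaks in the GRdim top decile, 179 (55.9%) were in the WT top decile and 2 (0.625%) in the lower 50% of the WT list. These shares depend on the lengths of the lists. Counting absent peaks with those in the lower 50%, 39.1% of the WT top decile and 1.56% of the GRdim top decile were so placed in the other list. With the WT list cut to the length of the GRdim list the shares were 34.4% (29.4 to 39.8) and 6.25% (4.08 to 9.46).

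**Figure D2:**
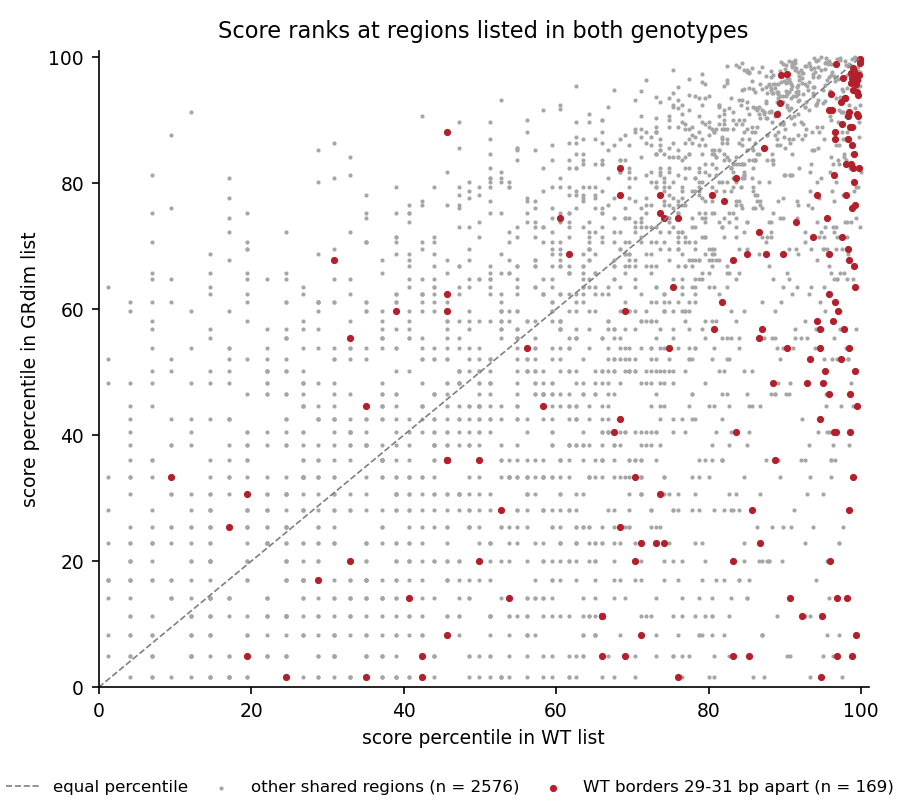
Score percentile in the WT list (horizontal axis) against that in the GRdim list (vertical axis) for the 2745 shared regions, with the dashed line at equal percentiles; red points are the 169 regions whose strongest WT ChIP-exo borders lay 29 to 31 bp apart. Regions high in WT are spread over the whole GRdim list, and the red points crowd at the right edge, with a median percentile of 93.7 in WT and 59.7 in GRdim.

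The 5 shared regions with the highest WT scores show how far the ranks could part. The WT leader, chr2:167670160-167670359, scored 23.56 in WT and 3.91 in GRdim, where it ranked 579 of 3183. It held 3367 ChIP-exo tags in WT and 64 in GRdim, a 29.9-fold difference in RPM, the tag count scaled to the size of the library. The region of rank 5, chr4:141484962-141485161, scored 20.74 and 4.92 (rank 240.5, still in the GRdim top decile), with 3432 and 81 exo tags. The other 3 ranked within the first 27 of the GRdim list. Region chr7:71041868-71042067 scored 23.41 in WT and 9.22 in GRdim (rank 16), chr4:150059298-150059497 scored 22.95 and 11.18 (rank 3), and chr14:21925933-21926132 scored 20.90 and 8.39 (rank 27). Their exo tags were 4041 and 148, 3228 and 434, and 3048 and 263. The C/EBPβ list of WT at 6am held all 5, with scores, in order of WT rank, of 2.41, 21.18, 18.69, 11.94 and 2.61.

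The leaders of the GRdim list had WT ranks from 3 to 303. Its highest peak, chr2:27480475-27480674, scored 14.90 in GRdim and 14.16 in WT (rank 50), with 625 and 817 exo tags. Next came chr1:182939887-182940086, with 11.76 in GRdim and 7.61 in WT (rank 303) and with 281 and 317 exo tags. After it came the chromosome 4 region already named. Region chr4:150081357-150081556 scored 10.89 and 8.03 and held 295 and 459 tags, and chr15:7087698-7087897 scored 10.56 and 9.63 and held 270 and 530. Apart from the chromosome 4 region of WT rank 3, these leaders differed by less than 2-fold in exo RPM.

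Among shared regions in the upper 50% of either list, the largest falls in percentile ended at the bottom of the GRdim list. Region chr12:16637315-16637514 scored 12.83 in WT and 2.06 in GRdim, with 992 and 25 exo tags. Region chr2:167677224-167677423 scored 9.86 and 2.03, with 425 tags in WT and no border listed in GRdim. The other 3, on chromosomes 12, 9 and 5, had WT scores of 7.61, 7.61 and 9.36 and GRdim scores of 2.03, 2.03 and 2.06. By 6pm GRdim livers had each of these 5 regions in their list, at scores from 2.88 to 6.32. The largest rises were smaller in score. They led from 2.17 to 4.70 at chr13:64053574-64053773, from 2.13 to 4.34 at chr15:67174854-67175053 and from 2.09 to 3.87 at chr14:66492285-66492484. At the chromosome 13 region the exo tags were 33 in WT and 47 in GRdim, from the shallower library, and at the chromosome 14 region they were 36 and 54.

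The 3036 WT-only peaks were weaker than the shared ones and lay far from GRdim peaks. Their median WT score was 2.55, against 3.46 at shared regions. The nearest GRdim centre was a median of 50012 bp away, and 172 of them (5.67%) had one within 1000 bp. In WT at 6pm 96.5% of them were listed, as were 98.6% of the shared regions. In GRdim at 6pm 55.0% were listed (shared regions 94.9%), and 1702 (56.1%) were in the GRdim list of 6pm or of prednisolone. After prednisolone, 41.3% were listed in WT and 15.8% in GRdim, against 70.7% and 68.7% of the shared regions. In all, 1140 WT-only peaks (37.5%) were in no GRdim list and held no GRdim exo border at 6am. Of the 161 in the WT top decile, 97 (60.2%) were in the GRdim list of 6pm or of prednisolone.

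Among the WT-only peaks with no GRdim centre within 1000 bp, those with the highest scores had at least 724 exo tags in WT. Region chr5:121784129-121784328, with a score of 18.08, held 2021 tags in WT and 12 in GRdim. At chr6:72111099-72111298, which scored 16.25, the WT library held 1630 tags and no GRdim border was listed. At chr2:167686130-167686329, which scored 15.49, the WT tags were 1696, again without a GRdim border. Regions chr17:47644988-47645187 and chr17:81784938-81785137, with scores of 13.21 and 12.56, held 861 and 724 tags in WT and likewise none listed in GRdim. The last of these was in no GRdim list of any condition, and its nearest GRdim centre at 6am was 624847 bp away. The other 4 reached the GRdim 6pm list at scores from 2.21 to 4.85.

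Between the WT leader and the chromosome 2 peak just named lay a run of WT peaks that kept different ranks in GRdim. This stretch was chosen after its values had been seen. In chr2:167670160-167686329, which spans 16170 bp, the WT list held 5 peaks with scores of 23.56, 9.86, 6.32, 5.02 and 15.49 from left to right. At 4 of them the GRdim scores were 3.91, 2.03, 3.47 and 2.06, and the last was not listed. The first and the middle one lie above the GRdim median score of 2.71, the other 2 near the lowest score of the list. The WT library held 3367, 425, 163, 246 and 1696 exo tags at the 5 peaks. The GRdim library held 64 at the first and 10 at the middle one, with no border listed at the others. At 6pm the GRdim list held all 5, with scores of 14.89, 6.32, 8.15, 7.06 and 2.21.

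GRdim-only peaks were few and weak. The 438 peaks had a median GRdim score of 2.28 and a highest of 5.14. Most were in the longer 6pm list of either genotype, 79.9% in WT and 79.9% in GRdim. After prednisolone, 23.1% were listed in WT and 40.6% in GRdim. A WT exo border was listed at 371 of them (84.7%), more than the 250 (57.1%) with a GRdim border, so that the WT library marked most regions that the WT peak list lacked. A GRdim border without a WT border was found at 38. Among those with no WT centre within 1000 bp, the highest score, 4.63, belonged to chr13:39024321-39024520, with 69 exo tags in GRdim and no border in WT. The next, chr5:115925942-115926141, scored 3.98, held 72 tags in GRdim and no border in WT, and was in no WT list of any condition. At the other 3 leaders both libraries had borders: 17 WT and 13 GRdim tags at chr16:33318353-33318552, 58 and 26 at chr2:38418217-38418416, and 95 and 31 at chr17:4946169-4946368.

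ChIP-exo gives a second readout at the same regions, from separate libraries. Within a genotype it followed the ChIP-seq score, with a Spearman rho over peaks of 0.818 in WT (n = 5642 peaks with a border) and 0.641 in GRdim (n = 2470). Of the shared regions, 99.5% held a WT border and 80.9% a GRdim border. Of the WT-only regions, 95.9% held a WT border and 26.4% (24.8 to 27.9) a GRdim border. Where a peak was missing from the GRdim ChIP-seq list, a GRdim border was still listed at 800 of 3036 regions. Borders on both strands were listed at 5.93%. With both lists limited to scores of at least 3, a border was listed at 47.5% of the WT peaks without a GRdim partner. That set also holds WT peaks whose GRdim peak scored below 3.

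A higher WT score was not accompanied by more GRdim borders at the WT-only regions. By quintiles (20% of the peaks) of the WT list, from the highest scores to the lowest, 20.6%, 26.6%, 31.4%, 30.3% and 22.2% of them held a GRdim border, while shared regions of the same quintiles held one in 90.2%, 85.1%, 79.5%, 65.3% and 63.2%. In the WT top decile the shares were 45 of 161 (28.0%) and 389 of 420 (92.6%). At the RPM of WT, summed over all borders of a region, the 116 top-decile WT-only regions without a GRdim border would hold a median of 232 tags in a library of the GRdim size. Such a sum over several borders cannot be set against the unknown threshold for listing 1 border. Among all regions where at least 50 tags would fall at the WT RPM, 1522 of 1716 shared regions (88.7%) and 272 of 999 WT-only regions (27.2%) held a GRdim border. The smaller share of GRdim library tags in peaks (0.408% against 1.57%) moves with these shares, and its part was not tested.

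Where both libraries had borders, GRdim carried less signal per library tag. Over the 2998 such WT peaks the summed RPM was at least 2-fold lower in GRdim at 58.0% and at least 2-fold higher at 2.10%. Both shares hang on the scaling. The summed nuclear borders of the libraries have a log2 ratio of -1.94, and relative to that the shares were 11.7% and 40.2%. The median log2 ratio of GRdim over WT was -1.22 at 2215 shared regions (quartiles -2.14 and -0.42) and -1.34 at 783 WT-only regions. At the 212 GRdim-only regions with borders in both it was -0.35. Much of this lay in the number of borders listed. A shared region held a median of 8 WT borders and 3 GRdim borders, at 0.281 and 0.379 RPM per border, and a WT-only region 5 and 1, at 0.240 and 0.316. RPM per border depends on the listing limits, since a given tag count is a higher RPM in the smaller GRdim library. The weakest nuclear border held 3 tags of 55.7 M in WT and 4 of 31.6 M in GRdim. With the strongest border of each strand alone, the medians were -0.29 at shared, -0.56 at WT-only and 0.16 at GRdim-only regions. A strand without a listed border added nothing to that sum, so these ratios also hold strands unlisted in 1 library. Within 100 bp of the peak centre, both strands had a border at 93.6% of shared regions in WT and 47.8% in GRdim. At WT-only regions these shares were 79.1% and 5.83%. RPM is scaled to all tags of a library. With scaling to the listed nuclear borders instead, of which 61.3% in WT and 67.2% in GRdim lie in 6am GR peaks, the medians at shared and WT-only regions turned to 0.72 and 0.60.

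In the WT top decile the strongest borders had a median of 2.71 RPM in WT and 1.01 in GRdim at 389 shared regions, a log2 ratio of -1.63. At the 45 WT-only regions with a GRdim border they had 3.63 and 0.379 RPM, a ratio of -3.39. These regions were ranked in WT and entered only with a listed GRdim border, so the ratio is bound to fall as WT signal rises, and the values are a description. Change in ChIP-seq percentile and log2 exo ratio moved together over the 2215 shared regions (Spearman rho 0.459). Both are changes from the WT level, and WT score and WT exo RPM were themselves related (rho 0.818). A positive rho is thus partly built in, and the size of that part was not tested.

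**Figure D3:**
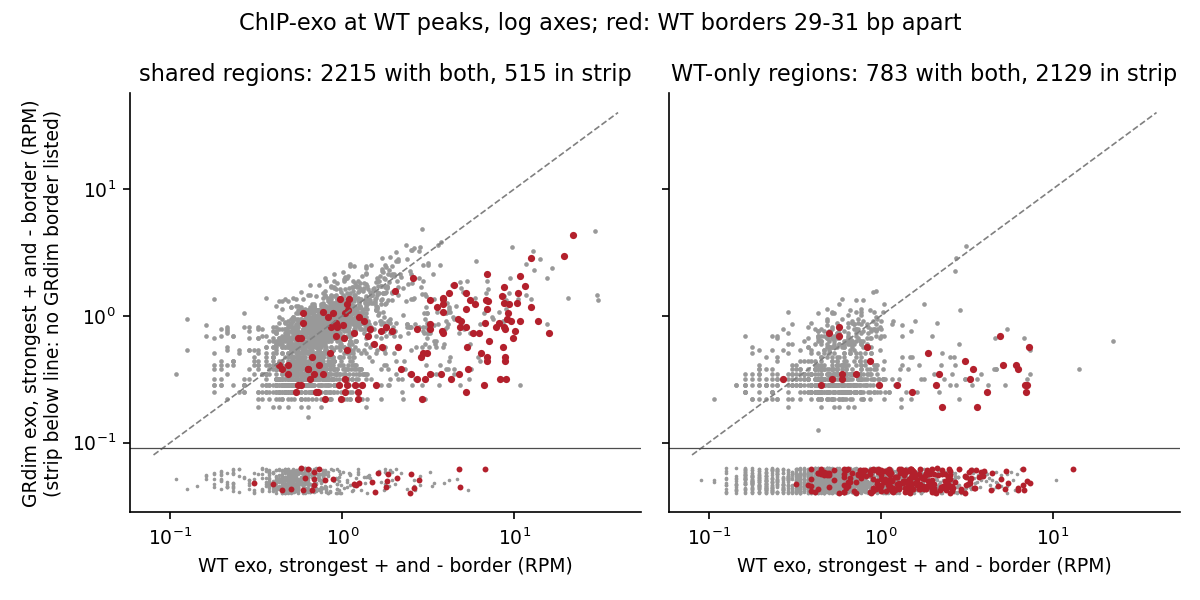
ChIP-exo RPM of the strongest plus-strand and minus-strand borders in WT (horizontal, log axis) against GRdim (vertical, log axis) at shared regions (left) and WT-only regions (right); the dashed line marks equal RPM, red points have WT borders 29 to 31 bp apart, and the strip under the line holds regions with no GRdim border, spread vertically for display. The strip holds 515 shared and 2129 WT-only regions, and red points lie mostly below the dashed line or in the strip.

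Among shared regions with at least 100 tags in either library, the lowest ratio was at chr9:48531789-48531988, with 2609 tags in WT and 10 in GRdim (148-fold). Its ChIP-seq scores were 20.29 and 3.40. The next 4 held 1261 WT and 10 GRdim tags at chr15:58875405-58875604, 1212 and 10 at chr8:129332515-129332714, 1519 and 14 at chr17:56248169-56248368, and 733 and 8 at chr9:43564072-43564271. In each of these 4 the strongest WT borders lay 30 or 31 bp apart. The GRdim counts at these 5 regions, 8 to 14 tags, are near the median of 11 tags in 1 listed nuclear GRdim border. Weaker borders are not listed, so the GRdim signal may be understated and the folds too large. At the other end, chr7:29431064-29431263 held 42 tags in WT and 104 in GRdim, a log2 ratio of 2.12. Region chr16:23985362-23985561 held 65 and 126, and chr10:60876011-60876210 held 93 and 132. None of the 5 regions with the highest ratios had WT borders 29 to 31 bp apart. That spacing was found at 6.58% of the shared regions with both WT borders, and at that share none among 5 regions is no contrast.

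The spacing of the borders, the position of the strongest minus-strand border less that of the strongest plus-strand border within 100 bp of the WT peak centre, differed between the libraries at the shared regions. In WT 169 of 2568 regions with both borders (6.58%) had borders 29 to 31 bp apart, and in GRdim 31 of 1312 (2.36%), a difference of 4.22 percentage points (2.90 to 5.46). A spacing of 24 to 26 bp was found at 4.71% in WT and 5.49% in GRdim, and one of 10 to 12 bp at 8.76% and 6.10%. Beyond 20 bp the commonest spacing was 30 bp in WT and 25 bp in GRdim. The difference at 29 to 31 bp rests on taking the strongest borders: with the closest opposite borders it was -1.16 points. Both strands had a border at 93.6% of shared regions in WT and at 47.8% in GRdim.

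Single borders were seldom at the same base in both libraries. Where both had a plus-strand border, the strongest lay within 1 bp in 310 of 1752 regions (17.7%), and for the minus strand in 292 of 1708 (17.1%). Of the 89 shared regions with a spacing of 29 to 31 bp in WT and borders of both strands in GRdim, 4 (4.49%, 1.76 to 11.0) had that spacing in GRdim. A GRdim spacing of 24 to 26 bp was found at 7 of them (7.87%, 3.86 to 15.4). At 982 such regions with other WT spacings, these GRdim spacings were found at 22 (2.24%) and 46 (4.68%). Of the regions with 24 to 26 bp in WT, 12 of 65 had that class in GRdim, and of those with 10 to 12 bp, 25 of 131.

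**Figure D4:**
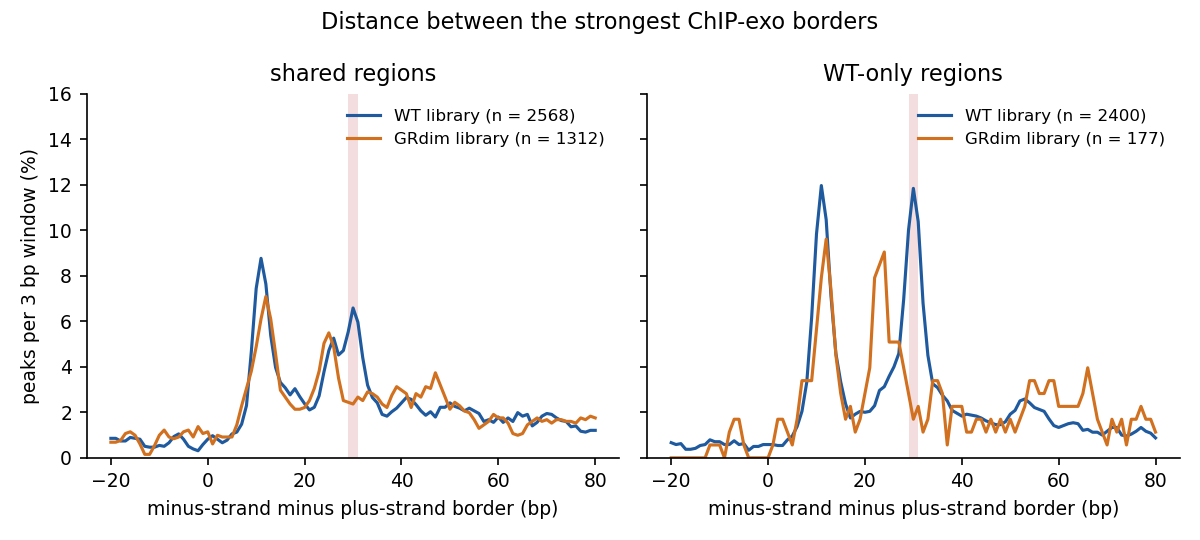
Spacing of the strongest ChIP-exo borders (bp, horizontal axis) as the share of peaks per 3 bp window (%, vertical axis) at shared regions (left) and WT-only regions (right), with the band of 29 to 31 bp shaded. At shared regions the commonest spacing beyond 20 bp is 30 bp in WT and 25 bp in GRdim. The window of 10 to 12 bp is higher than either, at 8.76% in WT and 6.10% in GRdim. At WT-only regions the GRdim line rests on 177 regions.

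WT-only regions held the 29 to 31 bp spacing more often than shared ones. In the WT library it was found at 284 of 2400 WT-only regions with both borders (11.8%), 5.25 points above the shared regions (3.65 to 6.88). The 10 to 12 bp spacing was found at 12.0% of WT-only regions, against 8.76% of shared ones. In the GRdim library 3 of 177 WT-only regions (1.69%) had borders 29 to 31 bp apart. At GRdim-only regions the WT library had that spacing in 7 of 229 (3.06%).

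Read the other way, WT peaks with the 29 to 31 bp spacing were less often listed in GRdim than peaks of other spacings, although they scored higher. The 453 such peaks had a median WT score of 4.07, and 37.3% (33.0 to 41.9) were in GRdim. The 3796 peaks with spacings outside the 3 classes had a median score of 2.97, and 54.1% were in GRdim. The difference of -16.8 points (-21.4 to -12.0) was wider in 4 of the 5 quintiles of the WT list. In the highest quintile 116 of 214 (54.2%) against 543 of 690 (78.7%) were in GRdim, and in the next 31.3% against 72.3% (-41.0 points, -50.4 to -29.9). In the 2 after that the differences were -30.1 and -23.0 points, and in the lowest quintile -12.2 points, with an interval (-19.5 to 2.07) that includes 0. Peaks with 24 to 26 bp were listed in GRdim at 58.5%, which did not differ from other spacings beyond counting error (4.37 points, -2.62 to 11.1). Peaks with 10 to 12 bp were in between at 43.9% (-10.1 points, -14.7 to -5.53), with a median score of 4.03. By quintile from the highest scores, their differences from the other spacings were -22.0, -23.5, -20.8, -14.7 and -10.7 points. The interval of the last (-18.1 to 1.65) includes 0. In the highest quintile 127 of 224 of them (56.7%) were in GRdim, close to the 54.2% of the 29 to 31 bp class. In the next quintile the shares were 48.7% and 31.3%.

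**Figure D5:**
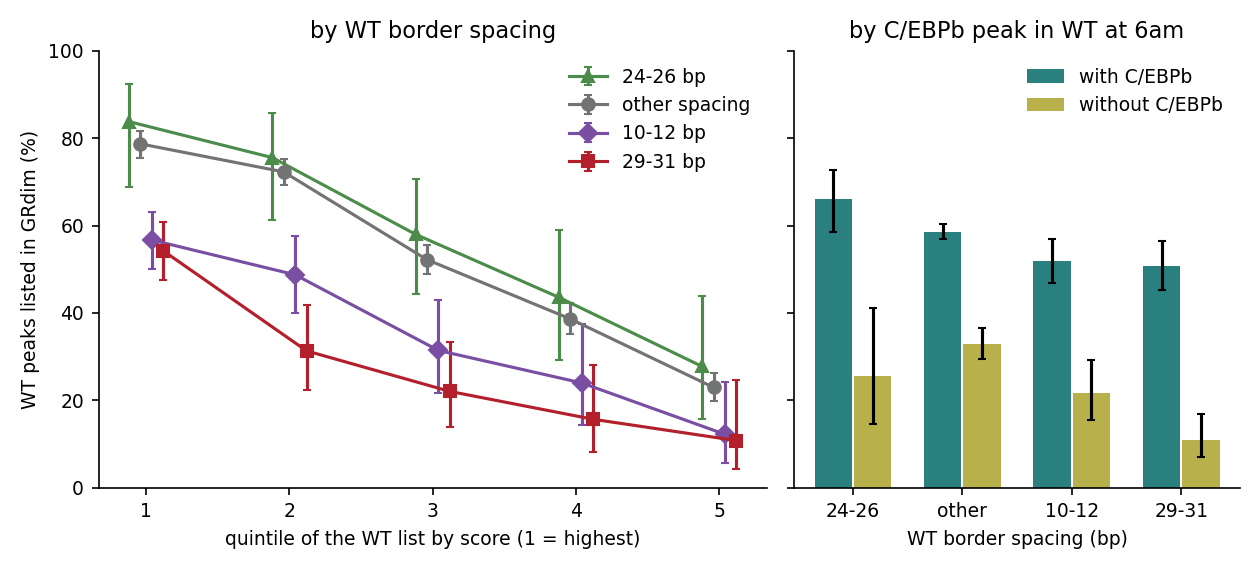
Share of WT peaks listed in GRdim (%, vertical axis, with Wilson 95% intervals) by quintile of the WT list from highest to lowest scores (left panel, horizontal axis), and with or without a C/EBPβ peak (right panel, bars, all quintiles together), for classes of WT border spacing. The 29 to 31 bp class runs from 54.2% to 10.8%, below the other spacings (78.7% to 23.0%) in each quintile. The 10 to 12 bp class, from 56.7% to 12.2%, is also below them in each quintile.

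A GRdim border was found at 37.1% of the peaks with 29 to 31 bp, at 50.8% with 10 to 12 bp, at 62.8% with 24 to 26 bp and at 59.0% of the others with both WT borders. Peaks without borders on both strands in WT held one at 27.6%. Where both libraries had borders, 148 of 168 peaks with 29 to 31 bp (88.1%) were at least 2-fold lower in GRdim, against 58.7% of the other spacings. With scaling to the listed nuclear borders these shares were 47.6% and 9.07%. The median log2 ratio of the strongest borders was -2.14 there, -0.77 with 10 to 12 bp, -0.32 with 24 to 26 bp and -0.37 at the others. Among these peaks the class stood apart in WT signal: its strongest borders had a median of 2.94 RPM in WT and 0.648 in GRdim, and those of the other spacings 0.700 and 0.569. Within the highest quintile of WT scores the ratio was -2.64 at 119 peaks with 29 to 31 bp, -1.88 at 131 with 10 to 12 bp and -0.44 at 533 others. The 29 to 31 bp class had the higher WT signal there too, with 4.79 against 1.26 RPM in WT and 0.728 against 0.886 in GRdim. The 10 to 12 bp class had 2.44 RPM in WT and 0.822 in GRdim. The spacing and the ratio share the WT library, and the part of the WT signal in the ratio was not tested. The other conditions gave a similar split, here not divided by WT score, in which the 29 to 31 bp class is higher. After prednisolone 80.1% of that class were in the WT list (10 to 12 bp 75.6%, others 56.2%). Of its 284 WT-only peaks 100 (35.2%) were in the GRdim 6pm list (10 to 12 bp 47.0%, others 59.2%). In any of the 3 GRdim lists 59.8% of the class were found. The shares were 71.1% with 10 to 12 bp, 81.8% of the others and 84.1% with 24 to 26 bp.

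C/EBPβ, profiled in WT at 6am, marked shared regions more than WT-only ones: 88.9% against 71.4%, a difference of 17.4 points (15.4 to 19.4). The difference was 23.8 points in the highest quintile of the WT list and 19.5, 14.0, 11.8 and 9.30 points in the following ones. Of WT GR peaks with a C/EBPβ peak, 2439 of 4608 (52.9%) were in GRdim, and of those without one 306 of 1173 (26.1%). The share also followed the C/EBPβ score, from 60.4% at C/EBPβ peaks in the highest quintile of the whole C/EBPβ list to 40.6% at those in the lowest. GRdim-only peaks carried a C/EBPβ peak in 63.2%. C/EBPβ was not profiled in GRdim, so these are WT values at regions sorted by GRdim listing.

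C/EBPβ and border spacing overlapped as descriptors. A C/EBPβ peak lay at 66.0% of the WT peaks with 29 to 31 bp, at 73.8% with 10 to 12 bp, at 81.2% with 24 to 26 bp and at 82.6% of the others. With a C/EBPβ peak, 152 of 299 peaks of the 29 to 31 bp class (50.8%) were in GRdim, against 58.6% of the other spacings, a difference of -7.72 points (-13.6 to -1.83). Without one, 17 of 154 (11.0%) were in GRdim, against 218 of 662 (32.9%). In the highest quintile of the WT list the 4 shares were 65.8%, 82.7%, 21.4% and 46.1% in the same order, the 21.4% being 12 of 56 peaks. The 10 to 12 bp class was near the 29 to 31 bp class with a C/EBPβ peak, at 196 of 378 (51.9%), and above it without one, at 29 of 134 (21.6%). In the highest quintile these 10 to 12 bp shares were 60.2% and 41.9%.

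Listing in GRdim also varied with the clustering of peaks, and its share was lowest on the X chromosome, though on few peaks. Another WT peak lay within 10 kb of 54.4% of shared and 44.4% of WT-only regions. By quintile of the WT list from the highest scores, the shares were 62.5%, 58.7%, 50.0%, 41.8% and 42.4% at shared regions. At WT-only regions they were 53.3%, 42.6%, 46.3%, 43.7% and 41.4%, so the lower 2 quintiles hardly differed. Of WT peaks with 0, 1, 2 and 3 or more WT neighbours within 10 kb, 42.6%, 51.5%, 52.9% and 56.3% were in GRdim. Their median scores rose from 2.74 to 3.54. Among the 19 autosomes the share listed in GRdim lay between 41.6% and 54.7%. On the X chromosome it was 7 of 30 peaks (23.3%, 11.8 to 40.9). That interval overlaps the one of the lowest autosome, chromosome 6 (41.6%, 36.6 to 46.8). The scores of the X peaks were not taken into account.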

How the data were processed

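GR ChIP-seq and ChIP-exo lists of WT and GRdim liver at 6am were used as deposited, with the other GR lists and the WT C/EBPβ list as descriptors. Bowtie, HOMER and mm9 are named per the submitters' processing notes; roles, versions and thresholds were not given in the sources used here. Each list pools 2 replicates, per the labels. ChIP-seq lists hold a score per peak assigned by the authors, whose unit no source used here states. ChIP-exo lists hold, per the file headers, a deposited count of tags and the authors' RPM per border. The deposited height signal entered no comparison, nor did 2 further deposited quantities, a spread and a number whose meaning is unstated. Library size was taken as tags divided by RPM. A list leaves out weak sites, so a missing border is not a zero. No fold was taken against a region without any border, except in an alternative given below. In the strongest-border values a strand without a listed border added nothing to the sum.

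Overlap was at least 1 bp. Shares have Wilson and differences Newcombe 95% intervals, for counting only. Borders were assigned to a region where they lay in its 200 bp. Spacing classes, the splits by C/EBPβ and spacing, and neighbours were chosen after seeing the data. The rest of the members, lists and rules were also chosen with earlier results of these data known. Named regions were the 5 highest-scoring shared regions of each list, the 5 highest-scoring ones of 1 genotype with no centre of the other within 1000 bp, the 5 largest falls and rises in percentile among shared regions in the upper 50% of either list, and the 5 highest and lowest exo ratios at 100 tags or more. Planned gene lists and motifs need the mm9 genome and annotation, which were not used here. Alternatives were other overlaps, score limits, list lengths, border windows, tag minimums and scalings. The code was tested on simulated data. Tools were Python 3.11.15 with scipy 1.17.1 for intervals and correlations, pandas 2.3.3 and numpy 2.4.6 for tables, and matplotlib 3.10.9 for plots.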

Additional observations from a re-analysis of the deposited data

Results flagged for a closer look

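Borders on the mitochondrial genome lie in no ChIP-seq peak and enter no comparison above. They held 0.841% of the tags of the WT 6am ChIP-exo library (866 borders) and 1.61% of the GRdim library (839 borders). Of the RPM in all listed borders they made up 28.6% in WT and 74.6% in GRdim. The input samples of the series, which belong to ChIP-seq, were not analysed here, so the shares are not set against a control, and their part in the exo comparison was not tested.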

How the results depend on the processing

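Of 77 recomputed values, 23 stayed within the error of the value reported, 51 moved and 3 turned sign. With scores of at least 3, in the upper 50% of each list and at equal list length, in that order, WT peaks listed in GRdim were 38.5%, 44.7% and 63.2%. The rho of ranks was 0.478, 0.467 and 0.466, and the gap in median WT percentile between shared and WT-only peaks, 30.9 in the lists as deposited, was 23.9, 21.6 and 15.5. The absent share of the WT top decile was 37.7%, 32.6% and 20.8%, and the C/EBPβ difference 14.4, 14.6 and 20.0 points. GRdim peaks listed in WT were 84.8% with centres within 100 bp or 100 bp of overlap, 81.1% in the upper 50% and 63.2% at equal length. With scores of at least 3 and in the upper 50%, GRdim borders at WT-only peaks were at 47.5% and 43.3%, and the GRdim lists of 6pm or prednisolone held 73.1% and 70.2% of these peaks. Borders within 250 bp gave 28.3%, and borders on both strands 5.93%.

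The median log2 exo ratio at shared and WT-only regions was 0.72 and 0.60 (reversed) when scaled to listed nuclear borders, -0.79 and -0.55 with 20 tags in each library, and -0.29 and -0.56 for the strongest borders. It was -1.13 and -2.03 with scores of at least 3, and -1.35 and -2.16 at equal length. Under the nuclear-border scaling, chosen for these shares after seeing the data, 11.7% of peaks were at least 2-fold lower and 40.2% higher, and 47.6% of the 29 to 31 bp class and 9.07% of other spacings were lower. At equal length, also added then, 34.4% of the WT and 6.25% of the GRdim top decile were absent from or in the lower 50% of the other list. Borders within 250 bp gave -1.31 at shared regions. Scaling to 127 borders outside GR peaks gave -1.66 and -1.78, and regions without a GRdim border set to the lowest listed one -1.53 and -2.68; both were chosen after seeing the data. The WT less GRdim difference at 29 to 31 bp was -1.16 points (reversed) with the closest opposite borders and 8.52 with 20 tags on each border. The alternatives for listing by spacing were also chosen after seeing the data: -22.0 points with the closest borders, -31.6 with 20 tags, -25.5 at equal length, -7.72 with and -21.9 without a C/EBPβ peak, and -21.9 for any GRdim list. A different set of peaks or borders enters under each limit; beyond that the cause was not tested. No paired analysis was possible because each list pools its 2 replicates, and for the same reason no replicate could be left out. The unknown ChIP-seq depth and the lowest listed scores limit what absence from a list can show.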
